A study of Mus musculus with 5 samples.

Results

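The ATF4-CHOP branch of the integrated stress response was followed through 36 mouse genes in B16F1 cells, a mouse melanoma line. The genes were listed by name, with no threshold on their values, but with earlier results of these data known. They were 7 transcription factors, 8 signalling and translation effectors and 11 enzymes of amino acid and one-carbon synthesis. A further 7 were amino acid transporters and 3 were secreted factors. Of the 36 genes, 35 had a probe named by a RefSeq accession, among 22907 genes named in this way on the arrays. Pycr1, which makes proline, had no such probe and was not analysed here.

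RNA was measured on 5 one-colour Agilent arrays, each from 1 bulk culture. A culture of Tmsb4x knockout clone 1 and a culture of Tmsb4x knockout clone 2 each received TGF-β1 at 10 ng/ml for 2 days. Parental cells, called wild type here, received TGF-β1 at 10 ng/ml with CCG1423 at 10 µM for 2 days, TGF-β1 alone at 10 ng/ml for 2 days, or vehicle. Tmsb4x encodes thymosin β4, a protein that binds actin monomers. MRTF is a transcriptional coactivator that actin monomers hold out of the nucleus, and CCG1423 is used as an inhibitor of its signalling. The study asked how loss of Tmsb4x bears on TGF-β and MRTF signalling. Each knockout clone was a single clone and a single array, and the labels do not say that the cultures were grown or treated on separate occasions. The treatment field of the inhibitor array names CCG1423 only, while its title names both agents. The design text speaks of a knockdown and the sample labels of a knockout. In bulk cultures, fewer cells expressing a gene and less RNA per cell cannot be told apart.

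In the integrated stress response, kinases that sense amino acid shortage, unfolded proteins, haem shortage or viral RNA phosphorylate the translation factor eIF2. Bulk translation then slows, while the Atf4 messenger is translated more efficiently, so ATF4 protein can accumulate with little change in its RNA. ATF4 pairs with C/EBP family proteins on short DNA elements and switches on genes for amino acid uptake and synthesis, and under lasting stress also Ddit3, which encodes CHOP.

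Many of the response genes stood higher in the wild-type cells that had received CCG1423 with TGF-β1 than in those with TGF-β1 alone. Of the 33 genes compared, 18 were at least 2-fold higher with CCG1423 plus TGF-β1 than with TGF-β1 alone, where 6.01% of all genes compared were this much higher, and 0 were at least 2-fold lower. Fgf21, as a bound, and Ddit3, Nupr1, Gdf15, Slc7a11 and Trib3 led this group. With TGF-β1 alone, 30 of 33 genes lay below the vehicle culture, as did 8091 of all 14145 genes compared. Of these 30, Cbs was compared only through the vehicle array and so could only be lower. At least 2-fold lower were 4 of the 33, against 3.27% of all genes. Between the knockout clones and the single wild-type array with TGF-β1, 0 of 32 genes passed the limma test, though Vldlr passed under 2 of the other settings tried.

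Levels are given as the log2 of the probe's signal minus the log2 of the 75th percentile of the same array, so 0 is the 75th percentile and each unit is a 2-fold step. Levels of different genes come from different probes and are not set against each other. Folds are ratios of these normalised signals, each between single arrays unless stated otherwise. A single array has no replicate, so the values between single arrays carry no test and no error. Where a probe was not well above background on 1 side, the fold is a lower bound, taken against the lowest signal well above background on that array.

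All 5 arrays shared a slide and a scan, had 48.2% to 53.8% of probes well above background, and had 0 saturated spots. The 75th percentile of signal was lowest on the CCG1423 plus TGF-β1 array, at 230, against 281 to 329 on the other arrays. Tmsb4x was 3.21-fold lower in knockout clone 1 and 7.16-fold lower in knockout clone 2 than in wild type with TGF-β1 (limma adjusted p = 0.0857), and its level of 5.05 in vehicle cells lay between the clones at 5.44 and 4.28. All 10 melanocyte markers were well above background on every array. Their summed linear level was 2747 in clone 1, 2786 in clone 2, 1792 with CCG1423 plus TGF-β1, 2406 with TGF-β1 alone and 2349 with vehicle; Mitf was 2.34-fold and Mlana 3.14-fold lower with CCG1423 plus TGF-β1 than with TGF-β1 alone. Of the markers of other cells, 3 to 4 of 7 immune, 1 to 2 of 5 endothelial, 0 to 1 of 5 fibroblast and 1 to 2 of 6 epithelial genes were above background. Ptprc, Adgre1, Cd14, Cdh5, Kdr and Tek were above background on 0 arrays, Pecam1 on 4, and Cd3e, Cd68, Itgam and Vwf on all 5. The summed immune level was 40.2 with CCG1423 plus TGF-β1 and 31.8 with TGF-β1 alone, with Cd68 2.82-fold higher. Over the 5 arrays the sums ran from 31.0 to 40.2 for immune, 1.86 to 6.83 for endothelial, 0.0935 to 0.365 for fibroblast and 0.254 to 0.500 for epithelial markers, and the part of these shifts in the stress response values was not tested.

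Of the 35 genes with a probe, 31 were well above background on all 5 arrays. Among those 31, 24 had their highest level on the CCG1423 plus TGF-β1 array, 6 on the vehicle array (Atf5, Xpot, Psat1, Phgdh, Shmt2 and Slc7a1) and 1 on the clone 1 array (Ddit4). Such ranks were not counted over all genes, so no background share stands beside them. The lowest level fell on the clone 2 array for 17 genes, on the clone 1 array for 5, on the CCG1423 plus TGF-β1 array for 1, on the TGF-β1 array for 6 and on the vehicle array for 2. This count too has no share of all genes beside it. The clone 2 array had the highest 75th percentile, 329, and the fewest probes well above background, 48.2%. Ranks can shift with the scaling, as the members' median between the clones was -0.46 here and -0.14 in the deposited scaling. The other members were dim. Stc2, which encodes the secreted glycoprotein stanniocalcin 2, was above background on 0 arrays and gave no fold, Cbs on the vehicle array alone, Fgf21 on the CCG1423 plus TGF-β1 and clone 1 arrays, and Vldlr on every array except clone 1.

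**Figure D1:**
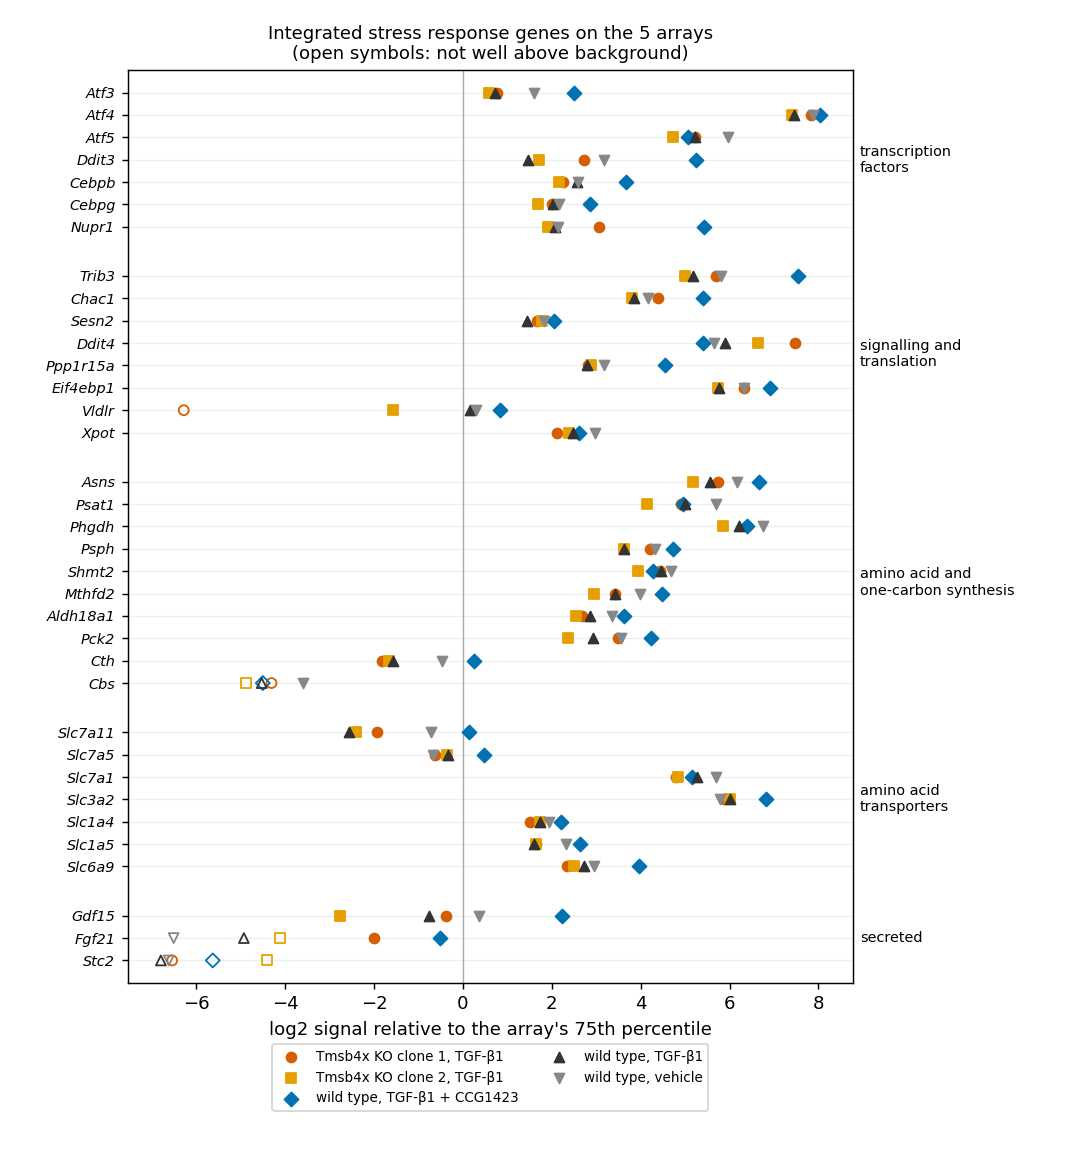
Log2 level of each gene relative to the array's 75th percentile (horizontal axis) on the 5 arrays, 1 point per array, grouped by role; open points were not well above background. The CCG1423 plus TGF-β1 points lie farthest right for 24 of the 31 genes measured on every array, a count not made over all genes.

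The sequence in which ATF4 and C/EBP proteins pair is known as the C/EBP-ATF response element, and the start regions of the responding genes are shown here because many share its letters. RefSeq promoters (build GRCm38.p6, 250 bases before to 50 after the annotated start) were found for 32 of the 36 genes, with no entry matched for Cth, Eif4ebp1, Slc7a5 and Slc1a5. The motif TGATGNAA was searched on both strands; on the opposite strand it reads TTNCATCA. It was present in 11 of the 32 promoters (34.4%), against 4.51% of all 27025 genes with a promoter of the same length (3.97% of all 32851 promoters). By response, 8 of the 15 promoters of genes at least 2-fold higher with CCG1423 held it, against 2 of the 14 promoters of the other measured genes (Slc1a4 and Vldlr), and the 11th was that of Pycr1. Among the 8 was Fgf21, which was compared only through the CCG1423 array, where it was high. The members were chosen as genes of this response, so their share is not independent of that choice. A match is a run of letters and not a measured binding site, and these shares were not tested.

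Windows around the match are printed 5′ to 3′ on the gene's own strand, with the motif in capitals. They are, in order, Asns at chr6:7693195-7693262 (minus strand), Atf3 at chr1:191183406-191183473 (minus), Chac1 at chr2:119351019-119351086 (plus), Fgf21 at chr7:45615592-45615659 (minus), Nupr1 at chr7:126625543-126625610 (minus), Pck2 at chr14:55540133-55540200 (plus) and Trib3 at chr2:152344011-152344076 (minus).
Asns: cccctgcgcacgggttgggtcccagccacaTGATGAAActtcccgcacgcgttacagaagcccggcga
Atf3: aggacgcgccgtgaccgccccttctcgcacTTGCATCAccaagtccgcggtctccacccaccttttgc
Chac1: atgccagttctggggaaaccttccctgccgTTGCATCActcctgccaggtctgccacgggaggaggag
Fgf21: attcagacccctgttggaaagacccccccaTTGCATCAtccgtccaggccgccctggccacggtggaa
Nupr1: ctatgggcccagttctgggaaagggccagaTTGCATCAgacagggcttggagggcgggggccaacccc
Pck2: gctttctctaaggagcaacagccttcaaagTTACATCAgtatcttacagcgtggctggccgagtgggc
Trib3: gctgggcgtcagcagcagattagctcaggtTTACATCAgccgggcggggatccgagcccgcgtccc

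The match began 23 bases before the start in Asns, in the orientation of the gene, and on the opposite strand in the other 6. Slc7a11 was the one promoter here with 2 matches, in opposite orientations, and its whole 300-base promoter is printed from chr3:50443564-50443863 (minus strand), with both matches in capitals.
Slc7a11: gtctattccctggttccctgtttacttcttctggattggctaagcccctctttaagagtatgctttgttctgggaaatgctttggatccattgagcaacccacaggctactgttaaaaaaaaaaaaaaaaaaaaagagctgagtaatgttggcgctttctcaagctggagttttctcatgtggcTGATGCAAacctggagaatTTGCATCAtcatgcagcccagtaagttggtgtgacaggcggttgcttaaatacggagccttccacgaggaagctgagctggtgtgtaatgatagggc
The Ddit3 promoter held 0 matches within its 300 bases, which says only that these letters are not in this window.

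Addition of CCG1423 to TGF-β1 was compared with TGF-β1 alone in wild-type cells, a contrast that asks what the inhibitor did on top of the cytokine. Among all 14056 genes compared, 6.98% were at least 2-fold lower. The median log2 difference of the 33 members was 1.05, beside -0.05 for all genes compared. Above 0 lay 28 members and below it 5, beside 6513 of all genes above and 7543 below. Fgf21 entered this comparison only through the CCG1423 array, where it was high. Without it, with both arrays required to be well above background, 17 members were at least 2-fold higher. The member just inside the 2-fold line was Slc1a5 (log2 difference 1.02) and the one just outside was Cebpg (0.83), whose second probe gave 1.07.

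Among the transcription factors, 4 of 7 were at least 2-fold higher with CCG1423. Ddit3, the CHOP gene, had levels of 2.73 in knockout clone 1, 1.70 in knockout clone 2, 5.25 with CCG1423 plus TGF-β1, 1.47 with TGF-β1 alone and 3.17 with vehicle. The CCG1423 plus TGF-β1 culture was thus 13.7-fold above TGF-β1 alone and 4.25-fold above vehicle, and the TGF-β1 culture was the lowest of the 5. Nupr1, a stress-induced chromatin-associated protein, had levels of 3.05 in clone 1, 1.91 in clone 2, 5.42 with CCG1423 plus TGF-β1, 2.07 with TGF-β1 and 2.15 with vehicle. It stood 10.2-fold higher with CCG1423 plus TGF-β1 than with TGF-β1, while the TGF-β1 and vehicle arrays differed by 1.05-fold.

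Atf3, a repressive partner factor induced downstream of ATF4, had levels of 0.76 in clone 1, 0.59 in clone 2, 2.51 with CCG1423 plus TGF-β1, 0.73 with TGF-β1 and 1.60 with vehicle, a 3.44-fold difference between CCG1423 plus TGF-β1 and TGF-β1. Cebpb, one of the C/EBP proteins that dimerise with ATF4, had levels of 2.24, 2.15, 3.67, 2.57 and 2.58 in the same order and was 2.14-fold higher with CCG1423. Only the CCG1423 array stood apart for Cebpb, the other 4 lying between 2.15 and 2.58. Atf4 itself had levels of 7.83 in clone 1, 7.41 in clone 2, 8.03 with CCG1423 plus TGF-β1, 7.44 with TGF-β1 and 7.89 with vehicle. Its RNA was 1.51-fold higher with CCG1423 than with TGF-β1 alone (log2 0.59, and 0.49 at its second probe), under the 2-fold line, and 1.11-fold above vehicle. Cebpg, a dimerisation partner of ATF4, was 1.77-fold higher with CCG1423, and Atf5, a related factor also controlled at translation, was 1.13-fold lower.

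Of the 8 effectors, 4 were at least 2-fold higher with CCG1423. Trib3, a pseudokinase that restrains ATF4 and CHOP activity, had levels of 5.71 in clone 1, 5.01 in clone 2, 7.54 with CCG1423 plus TGF-β1, 5.17 with TGF-β1 and 5.80 with vehicle, a 5.17-fold difference between the CCG1423 and TGF-β1 arrays. Ppp1r15a (GADD34), the phosphatase subunit that reverses eIF2 phosphorylation, had levels of 2.83, 2.87, 4.54, 2.80 and 3.17 in that order and was 3.35-fold higher. The other 4 arrays lay between 2.80 and 3.17 for Ppp1r15a. Chac1, which degrades glutathione, had levels of 4.38 in clone 1, 3.80 in clone 2, 5.41 with CCG1423 plus TGF-β1, 3.84 with TGF-β1 and 4.17 with vehicle and was 2.97-fold higher. Eif4ebp1, which blocks cap-dependent translation when mTORC1 is inactive, had levels of 6.33, 5.73, 6.90, 5.76 and 6.32 and was 2.20-fold higher. For both genes the inhibitor array was the highest and clone 1 lay above clone 2. The remaining effectors stayed under the line: Vldlr, a lipoprotein receptor (log2 difference 0.67), Sesn2, an mTORC1 inhibitor (0.61), Xpot, a tRNA export receptor (0.15), and Ddit4 (REDD1), another mTORC1 inhibitor (-0.50).

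**Figure D2:**
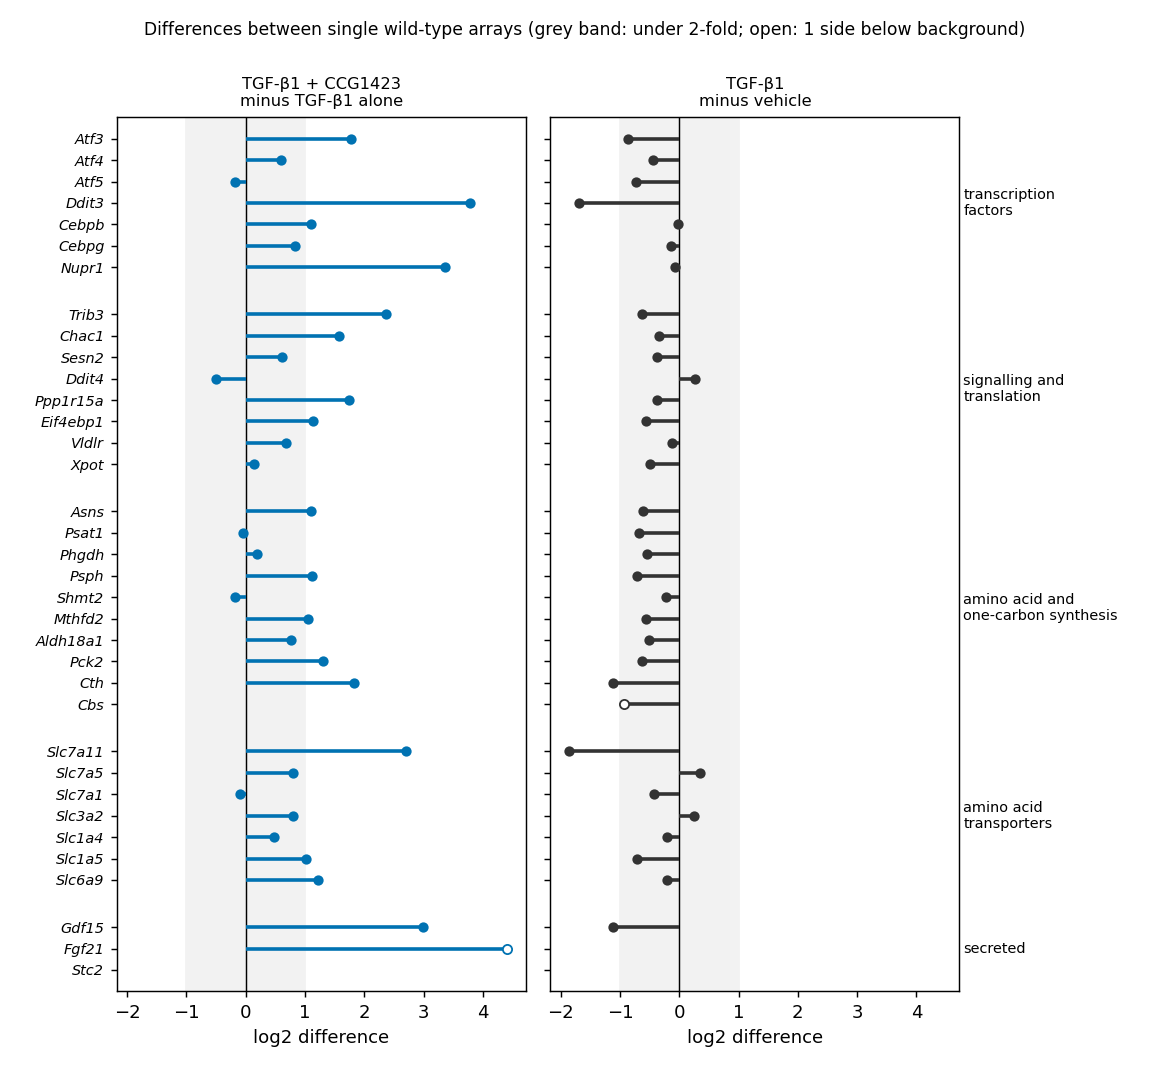
Log2 difference of each gene between CCG1423 plus TGF-β1 and TGF-β1 (left panel) and between TGF-β1 and vehicle (right panel), wild-type cells, 1 array a group; the grey band marks differences under 2-fold. On the left 18 genes lie above the band and 0 below, and on the right 0 lie above and 4 below.

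In amino acid and one-carbon synthesis, 5 of 9 enzymes compared were at least 2-fold higher with CCG1423 (median log2 difference 1.05). Cth, which makes cysteine from cystathionine, had levels of -1.82 in clone 1, -1.66 in clone 2, 0.25 with CCG1423 plus TGF-β1, -1.58 with TGF-β1 and -0.46 with vehicle. CCG1423 plus TGF-β1 was 3.55-fold above TGF-β1, and the clones lay close to the TGF-β1 wild type. Pck2, the mitochondrial enzyme that makes phosphoenolpyruvate, had levels of 3.48, 2.36, 4.23, 2.92 and 3.55 in the same order and was 2.47-fold higher, and its second, dimmer probe gave a log2 difference of 0.68 against 1.31.

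Psph, the last step of serine synthesis, had levels of 4.21 in clone 1, 3.63 in clone 2, 4.73 with CCG1423 plus TGF-β1, 3.62 with TGF-β1 and 4.33 with vehicle (2.16-fold higher with CCG1423). Asns, asparagine synthetase and a long-used reporter gene of ATF4 activity, had levels of 5.74, 5.17, 6.66, 5.56 and 6.16 (2.15-fold higher). Mthfd2, a mitochondrial folate enzyme, had levels of 3.41, 2.95, 4.48, 3.43 and 3.99 (2.07-fold higher, with a log2 difference of 0.86 at a second probe). In these 3 genes the CCG1423 array was the highest and the vehicle array came next. The other enzymes of the serine pathway did not follow: the log2 difference was 0.20 for Phgdh, its first step, -0.05 for Psat1, its second, and -0.17 for Shmt2, which splits serine in mitochondria. Aldh18a1, the first step of proline synthesis, lay at 0.76, and Cbs, which makes cystathionine, was below background on both arrays.

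Of the 7 transporters, 3 were at least 2-fold higher with CCG1423. Slc7a11 (xCT), the cystine importer, had levels of -1.93 in clone 1, -2.40 in clone 2, 0.14 with CCG1423 plus TGF-β1, -2.57 with TGF-β1 and -0.71 with vehicle. The CCG1423 array was 6.54-fold above the TGF-β1 array, and the vehicle array ranked second; a second probe, above background on 2 arrays and not with TGF-β1, gave a log2 difference of at least 1.39. Slc6a9, a glycine transporter, had levels of 2.35 in clone 1, 2.49 in clone 2, 3.95 with CCG1423 plus TGF-β1, 2.73 with TGF-β1 and 2.95 with vehicle (2.33-fold higher). Slc1a5, a glutamine and neutral amino acid transporter, had levels of 1.65, 1.66, 2.63, 1.61 and 2.33 (2.03-fold higher). Both clones and the TGF-β1 wild type lay within 1.61 to 1.66 for Slc1a5. The log2 difference was 0.79 for Slc3a2, the heavy chain shared by several exchangers (0.15 at its second probe), 0.79 for Slc7a5, its leucine-carrying partner, 0.47 for Slc1a4, a serine and alanine carrier, and -0.10 for Slc7a1, an arginine carrier.

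Of the secreted factors, Gdf15 was measured on both arrays, Fgf21 on the CCG1423 array only, so that it could only be higher there, and Stc2 on neither. Gdf15, a stress hormone that acts on appetite circuits, had levels of -0.38 in clone 1, -2.76 in clone 2, 2.22 with CCG1423 plus TGF-β1, -0.76 with TGF-β1 and 0.36 with vehicle, 7.91-fold higher with CCG1423 plus TGF-β1 than with TGF-β1. Fgf21, a metabolic hormone, had measured levels of -2.01 in clone 1, -4.11 in clone 2, -0.52 with CCG1423 plus TGF-β1, -4.93 with TGF-β1 and -6.51 with vehicle, of which only clone 1 and the CCG1423 array were above background. It was at least 15.5-fold higher with CCG1423 plus TGF-β1 than with TGF-β1. Gdf15 thus ranked with Ddit3, Nupr1 and Slc7a11 at the upper end of the members' differences.

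**Figure D3:**
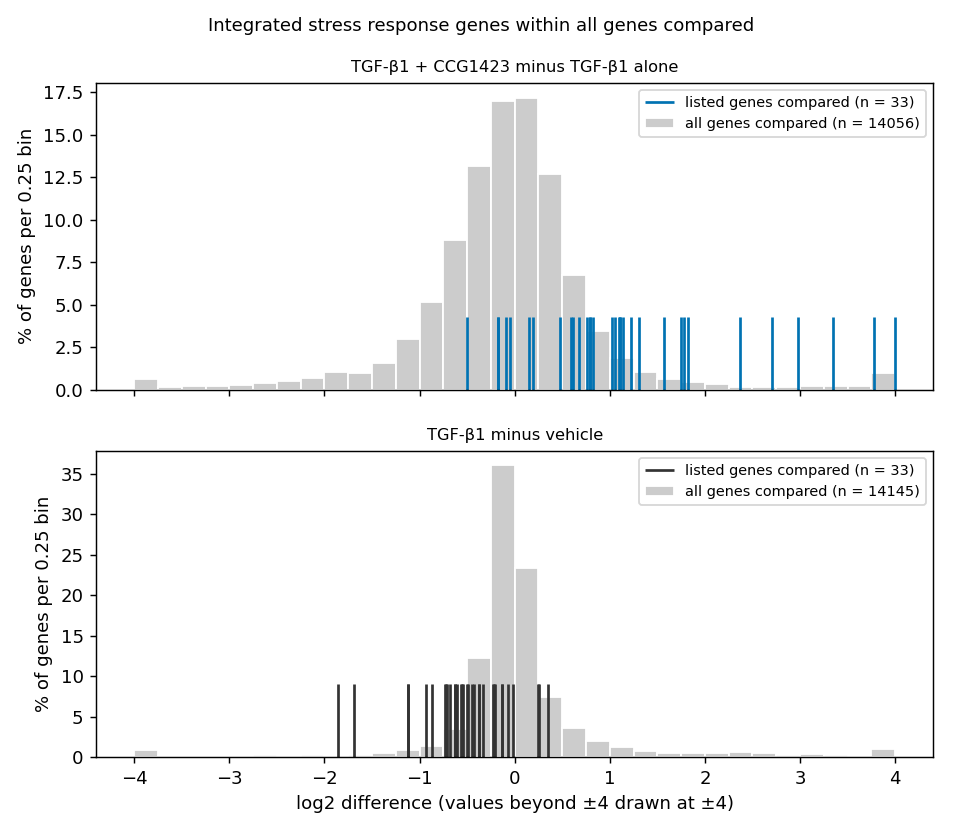
Share of all genes compared (percent, vertical axis) by log2 difference (horizontal axis) for CCG1423 plus TGF-β1 minus TGF-β1 and for TGF-β1 minus vehicle, 1 array a group, with a tick for each of the 33 members compared. The members' median is 1.05 and all genes' -0.05 in the first comparison, and -0.50 against -0.05 in the second.

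TGF-β1 was compared with vehicle in wild-type cells. Of 33 members compared, 4 were at least 2-fold lower (background 3.27% of 14145 genes) and 0 at least 2-fold higher (background 4.95%). The median log2 difference was -0.50, beside -0.05 for all genes, and 30 members lay below 0, as did 8091 of all genes. Slc7a11 was 3.62-fold, Ddit3 3.23-fold, Cth 2.17-fold and Gdf15 2.17-fold lower with TGF-β1 than with vehicle. With normexp background correction 2 were, as the log2 differences of Cth (-0.72) and Gdf15 (-0.88) no longer reached 2-fold. Just outside the line were Cbs (at least 1.84-fold lower, measured on the vehicle array alone) and Atf3 (1.82-fold lower). All 7 transcription factors and all 10 synthesis enzymes compared lay below 0, though the signs of Cebpb (-0.01) and Nupr1 (-0.07) turned under another scaling. Cbs, 1 of the 10 enzymes and of the 30 members below 0, entered only through the vehicle array and so could only be lower. Psph was 1.64-fold, Pck2 1.54-fold, Asns 1.52-fold, Trib3 1.55-fold and Atf4 1.36-fold lower. The 3 members above 0 were the transporters Slc7a5 (0.35) and Slc3a2 (0.25) and the mTORC1 inhibitor Ddit4 (0.26).

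The TGF-β1 array stands in both of these comparisons, so their values share 1 array. CCG1423 plus TGF-β1 was therefore also set against vehicle, where 11 of 34 members were at least 2-fold higher (background 7.56% of 13842 genes) and 0 at least 2-fold lower (8.06%). The median was 0.56, beside -0.05 for all genes. Above 0 lay 26 members and below it 8, beside 6418 of all genes above and 7424 below. Among the 8, Atf5 was 1.88-fold lower than in vehicle. Fgf21, 1 of the 11, entered only through the CCG1423 array and so could only be higher there. The members past the line were Ddit3, Nupr1 (9.70-fold), Cebpb (2.13-fold), Trib3 (3.33-fold), Chac1 (2.36-fold), Ppp1r15a (2.58-fold), Slc7a5 (2.21-fold), Slc3a2 (2.05-fold), Slc6a9 (2.01-fold), Gdf15 (3.64-fold) and Fgf21 (at least 13.5-fold). None of the 10 synthesis enzymes compared was among them. The median log2 difference of the 10 was 0.33, with 6 above 0 and 4 below. Asns stood 1.41-fold, Pck2 1.60-fold and Cth 1.63-fold above vehicle, while Psat1 lay 1.66-fold, Shmt2 1.32-fold and Phgdh 1.27-fold below it. Cbs, also lower, entered only through the vehicle array. Atf3 was 1.88-fold above vehicle, and Slc7a11 1.81-fold, though its second probe gave a log2 difference of -0.08. The second probe of Slc3a2 gave 0.14. With normexp 7 members passed the line.

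Loss of Tmsb4x was examined by setting the knockout clones against wild type, all with TGF-β1. limma was fitted on all 5 arrays in 4 groups, with the variance moderated across 13729 genes and p-values adjusted by Benjamini-Hochberg. This left 1 residual degree of freedom, the spread between the clones, beside 8.34 prior degrees of freedom from all genes tested. A standard error or p-value here thus rests mostly on variances pooled over genes, not on a gene's own spread. Those variances too come from the spread between the clones, which may be technical. Of the 32 members tested, 0 passed at an adjusted p of 0.05 (limma), where 0.00728% of all genes passed as higher and 0.226% as lower; 2 members, Ddit4 and Vldlr, had an unadjusted p under 0.05, against 5.78% of all genes. The median log2 difference of the members between the clones' mean and wild type was -0.09.

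By fold alone, 3 of 33 members were at least 2-fold higher in clone 1 than in wild type (background 4.52%) and 1 lower (3.34%), while in clone 2 the counts were 0 of 32 higher (4.74%) and 2 lower (2.73%). The members higher in clone 1 were Fgf21 (at least 5.51-fold, compared only because clone 1 was above background, and without which 2 were higher), Ddit4 (2.99-fold) and Ddit3 (2.39-fold). Both clones together had 0 members at least 2-fold higher (background 0.699%) and 1 at least 2-fold lower (1.58%). That member was Vldlr, with levels of -6.28 in clone 1, -1.57 in clone 2, 0.84 with CCG1423 plus TGF-β1, 0.16 with TGF-β1 and 0.29 with vehicle. It was at least 20.6-fold lower in clone 1, where its probe was not well above background, and 3.34-fold lower in clone 2 than in wild type with TGF-β1. Vldlr entered the clone 1 comparison only through the wild-type array, so it could only be lower there. With both arrays required to be well above background, 0 members were at least 2-fold lower in clone 1. The 3 wild-type arrays all lay above both clones. The limma fit, which uses the measured value of the dim probe, gave an adjusted p of 0.556, and from 9.24e-13 to 0.995 over the 9 settings with a value. Its second probe was below background in both clones and above it on the 3 wild-type arrays.

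Ddit4 had levels of 7.48 in clone 1, 6.65 in clone 2, 5.40 with CCG1423 plus TGF-β1, 5.90 with TGF-β1 and 5.64 with vehicle. Both clones stood above all 3 wild-type arrays, by 2.99-fold in clone 1 and 1.68-fold in clone 2 against wild type with TGF-β1, and the limma estimate of 1.16 ± 0.38 (SE) had an adjusted p of 0.518 (0.0802 to 0.872 over 10 settings). It was the one member highest in a knockout culture. For Ddit3 the clones lay 2.39-fold and 1.17-fold above wild type with TGF-β1 (limma estimate 0.74 ± 0.40, adjusted p = 0.991), and for Atf4 the estimate was 0.17 ± 0.35 (adjusted p = 1).

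**Figure D4:**
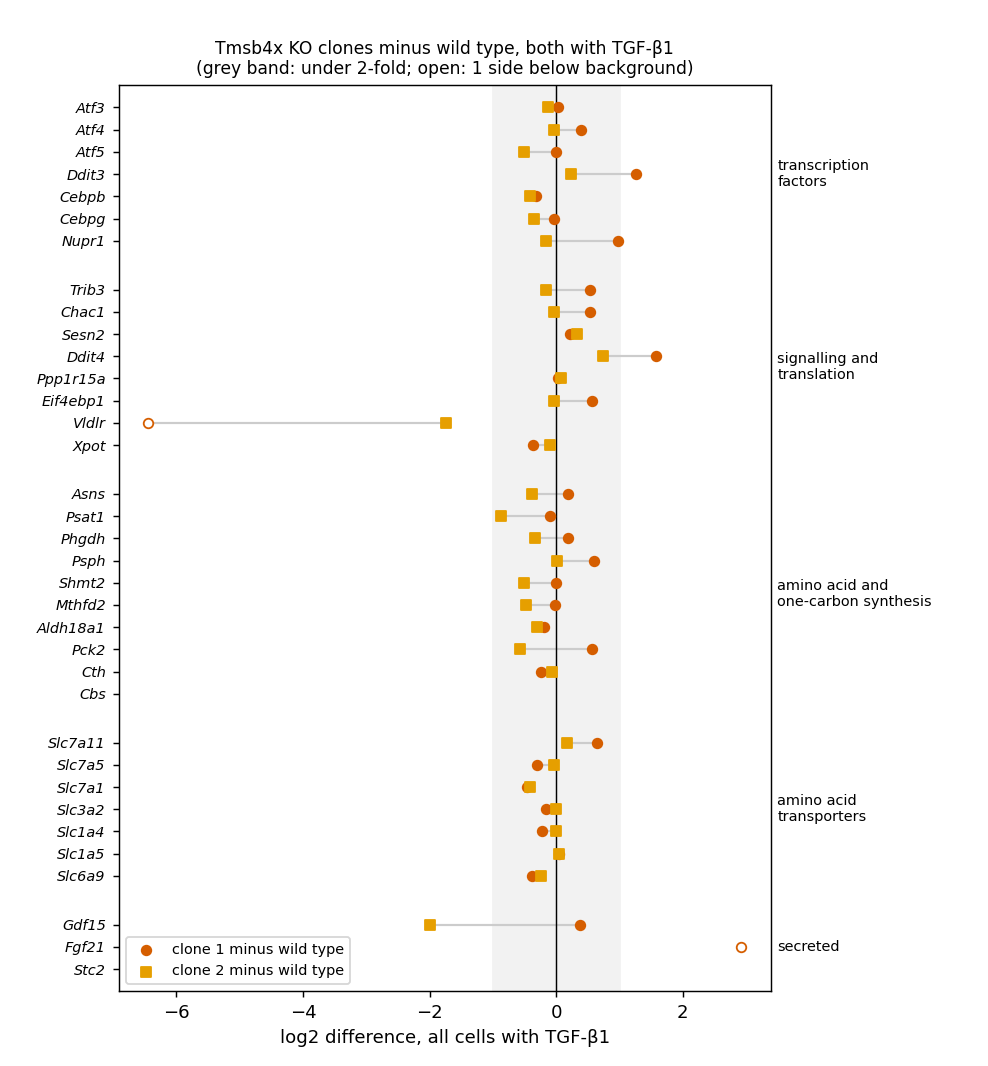
Log2 difference of each gene from wild type with TGF-β1 for knockout clone 1 and knockout clone 2, 1 array each. Vldlr lies below the 2-fold band in both clones, and Ddit3, Ddit4 and Fgf21 lie above it in clone 1. For Vldlr and Fgf21 in clone 1, 1 side was below background. The difference between the clones was not tested.

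The clones differed from each other over several of these genes. Of 33 members compared, 5 were at least 2-fold lower in clone 2 than in clone 1 (background 3.34% of 13849 genes) and 1 was higher (4.24%), with a median log2 difference of -0.46 beside -0.05 for all genes. Gdf15 was 5.19-fold, Nupr1 2.20-fold, Pck2 2.18-fold, Ddit3 2.04-fold and Fgf21 at least 3.15-fold lower in clone 2, and Vldlr was at least 6.17-fold higher. Fgf21 entered only through clone 1 and Vldlr only through clone 2, so each could pass in 1 direction only. Gdf15 lay 1.30-fold above wild type with TGF-β1 in clone 1 and 3.99-fold below it in clone 2 (limma estimate -0.81 ± 0.75, adjusted p = 1). All 7 transcription factors and 8 of 9 synthesis enzymes compared lay lower in clone 2, as did 7512 of all 13849 genes compared. Higher in clone 2 were 6 of 7 transporters, beside 6337 of all genes. Some of these differences were small, as for Cebpb (log2 -0.09) and Slc1a5 (0.01). In the authors' deposited scaling the members' median between the clones was -0.14, and that of all genes 0.27. The members' median stayed negative in all 8 settings. The signs of small differences, such as those of Atf3 and Cebpb, depended on how the arrays are brought to a common scale. With 1 array a clone, no test of this difference was available.

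Genes upstream and beside the response were read from lists of other pathway genes. Of 18 genes of the eIF2 axis, all compared, 0 were at least 2-fold higher with CCG1423 plus TGF-β1 than with TGF-β1 and 1 was lower, Eif2b1, a subunit of the eIF2 exchange factor (2.12-fold), beside 6.01% of all genes higher and 6.98% lower; the median log2 difference was -0.12. The RNA of the 4 eIF2 kinases differed by -0.37 for Eif2ak1 (HRI), -0.09 for Eif2ak2 (PKR), 0.40 for Eif2ak3 (PERK) and -0.15 for Eif2ak4 (GCN2) on the log2 scale. RNA levels of these kinases do not report their activity.

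Cytosolic aminoacyl-tRNA synthetases, which charge tRNAs with amino acids and include reported ATF4 targets, gave 0 of 20 past 2-fold in either direction with CCG1423. Among all genes compared, 6.01% were at least 2-fold higher and 6.98% at least 2-fold lower. The synthetases' median log2 difference with CCG1423 was 0.08, beside -0.05 for all genes. Above 0 lay 12 of the 20 and below it 8, beside 6513 of all genes above and 7543 below. Wars1 (0.95) and Sars1 (0.74) were the highest and Farsb (-0.86) the lowest on the log2 scale. With TGF-β1 against vehicle, 19 of the 20 lay below 0, as did 8091 of all 14145 genes compared. The synthetases' median was -0.28, beside -0.05 for all genes. Past 2-fold were 0 of the 20, beside 4.95% of all genes higher and 3.27% lower. Of 22 further reported ATF4 or CHOP targets, which again include Nars1 and Wars1, 20 were compared. With CCG1423, 4 of the 20 were at least 2-fold higher, beside 6.01% of all genes, and 1 was lower, beside 6.98%. The higher ones were Gadd45a, a growth arrest gene (10.3-fold), Kdm7a, a histone demethylase (2.81-fold), Bbc3 (PUMA), which promotes apoptosis (2.58-fold), and Sqstm1 (p62), an autophagy receptor (2.03-fold). Slc38a2, a glutamine and alanine transporter reported to be induced by amino acid shortage, was 2.03-fold lower. Between the knockout clones and wild type, limma passed 0 of 18, 0 of 20 and 0 of 20 genes tested in the 3 lists. Cdkn1a, the p21 cell cycle inhibitor, was 1.56-fold higher in clone 1 and 2.27-fold higher in clone 2 (limma adjusted p = 0.593).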

How the data were processed

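Gene expression was measured on 5 one-colour Agilent arrays of mouse B16F1 cells. Per the file headers, the deposited scanner files come from Agilent Feature Extraction 12.0.3.1 and give spot intensities (gProcessedSignal, already background-corrected) and flags for outlier and background spots. A deposited value table, also of intensity, equals these signals times 1 constant per array; the authors' scaling rule is not given in the sources used here. The deposited files' genome build differs from that of the reference table, so coordinates are printed only for RefSeq promoters (GRCm38.p6).

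From each array, 3671 control spots and the 107 to 141 spots flagged as outliers were removed, spots of a probe averaged (56595 probes), log2 taken and the array's 75th percentile subtracted. RefSeq accessions, versions removed, named 32988 probes; a gene with several probes kept the brightest by its mean of all 5 arrays. Genes entered a comparison when all arrays of 1 of its groups had them well above background. The knockout test was limma 3.58.1 in R 4.3.3 (lmFit, eBayes with trend), with Benjamini-Hochberg adjustment. Its code was run on simulated data with less noise than the spread between the clones and equal effects in both. That run does not show how the test performs at the spread of these data. Other contrasts have 1 array a group and no test. Python 3.11.15, numpy 2.4.6 and pandas 2.3.3 were used. The number of arrays limits the precision.

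Genes given with all 5 values were those at least 2-fold different with CCG1423, with TGF-β1 or in both clones, and Atf4; Ddit4 was added after its values were seen. Members and lists were chosen with earlier results of these data known. Alternatives were another scaling (array median, quantile), the deposited table, normexp (offset 50), the median over probes, other filters, eBayes without trend and fewer arrays. The normexp alternative had been planned on mean signals, and the median signals and median backgrounds of the files were used.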

Additional observations from a re-analysis of the deposited data

How the results depend on the processing

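The count of members at least 2-fold higher with CCG1423 plus TGF-β1 than with TGF-β1 lay between 13 (deposited table) and 18 over the 8 settings, with the median at 0.92 in the deposited table against 1.05. Its scaling shifts the median of all genes to -0.18 for CCG1423 plus TGF-β1 against TGF-β1, -0.33 for clone 1 against wild type and 0.27 for clone 2 against clone 1. With it the members' median was -0.33 for clone 1 (0.03 otherwise), -0.29 for the clones' mean (-0.09) and -0.14 between the clones (-0.46), and 2 members instead of 5 were at least 2-fold lower in clone 2 than in clone 1. Quantile normalization gave -0.30 for the clone-to-clone median. With normexp, 2 members were at least 2-fold lower with TGF-β1 than with vehicle (4 otherwise), 3 were lower in clone 2 than in clone 1, and 7 were higher with CCG1423 plus TGF-β1 than with vehicle (11). The median over probes gave 0.42 for the last median (0.56) and 0 members higher in clone 2 than in clone 1 (1). With every array compared required to be above background, 0 members were lower in clone 1 than in wild type and 0 higher in clone 2 than in clone 1, since Vldlr leaves the comparison. The number of genes passing limma was 32, and 53 with array-median scaling, 0 with quantile, 85 with normexp, 220 with the deposited table, 0 with the median over probes, 279 with no filter, 3 with every array above background, 184 without trend and 75 with the 3 arrays alone. Among members, 1 (Vldlr) passed in the deposited table and with no filter, against 0; the causes were not tested. Without clone 1 the median between knockout and wild type was -0.15 and without clone 2 it was 0.03, values with no test. The other 103 alternative values of these results stayed within 1.5 times for counts and within the spread between the clones for medians, but 3 of them have the other sign, all medians near 0: clone 1 with array-median scaling and with quantile normalization (-0.04), and the clones' mean without clone 2. Of the values of single members, 743 stayed within that spread, 9 of them with the other sign, and 77 moved by more, 11 of them with the other sign. No paired analysis was possible because every label carries replicate 1, so the groups share fewer than 2 replicate numbers.

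The comparisons between single arrays have no replicate, so none of their differences can be set against a spread. Probes near background (Fgf21, Cbs, Stc2, Slc7a11's second probe and Vldlr in clone 1) support only bounds or no fold, and medians and limma use their measured values. Comparisons that use the same TGF-β1 array share its error.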
